A study of Homo sapiens with 6 samples.

Results

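The genes described here are 10 integrin subunits measured by RNA sequencing in T98G, a human glioblastoma cell line. They comprise 4 β subunits (ITGB1, ITGB3, ITGB5 and ITGB8) and 6 α subunits (ITGA2, ITGA3, ITGA4, ITGA5, ITGA6 and ITGAV). The members were found by symbol in the normalized table, where they are 10 of 23026 genes. ITGB1 was picked because its transcript was among those that differed most between the conditions in earlier results of these data, and the other subunits were listed around it with those results known. The members were thus chosen by the log2 fold change between the conditions, and for them it is given as a description with no test. Of the 10 members, 9 passed the filter on low counts (a mean normalized CPM above 10), which left 9697 genes for the tests across genes, and ITGB3 did not. Below, a gene is said to be called when its adjusted p was below 0.05 and its log2 fold change was beyond 0.7 in either direction.

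Integrins are cell surface receptors built from 1 α and 1 β subunit, and they tie the extracellular matrix outside the cell to the actin cytoskeleton inside it. ITGB1 encodes β1, the shared partner of α2, α3, α4, α5, α6 and αV, so that its supply touches receptors for collagens, laminins, fibronectin and VCAM1 alike. ITGAV encodes αV, which also pairs with β3, β5 and β8 to bind ligands that carry the RGD motif, such as vitronectin and, for β8, the latent form of TGF-β. In gliomas, integrins are best known for their part in adhesion to and invasion along matrix-rich tracts of the brain.

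All T98G cells had been transduced with a lentivirus and selected in puromycin, and the virus carried either a control short hairpin RNA (shControl) or a hairpin against the protein kinase DYRK1A (shDYRK1A). Each condition has 3 libraries, named 1A, 1B and 1C, prepared from polyadenylated RNA with a strand-specific kit, and values of single libraries are listed below in that order. Drosophila Kc167 cells, in the same amount for every sample, were added as an external reference to samples that each held as many T98G cells, and the normalized counts are scaled to it. Each condition is represented by 1 hairpin name, and the labels do not say whether the letters mark separate cultures, so the p-values below measure only the spread between these libraries. In bulk RNA of this kind, fewer cells of a type and less RNA per cell cannot be told apart.

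The libraries held 33708297 to 42154438 counts in genes. Unmapped reads made up 10.7, 8.44 and 8.46% of the reads in the shControl libraries and 11.9, 15.6 and 10.8% in the shDYRK1A libraries. The share was thus higher in every shDYRK1A library than in every shControl library. The library shDYRK1A 1B had both the highest unmapped share and the lowest count. DYRK1A, the target of the hairpin, had raw counts of 1829, 1969 and 1946 in the shControl libraries and of 1568, 1140 and 1560 in the shDYRK1A libraries. Scaled to the spike-in, the mean went from 2119 ± 194 to 1274 ± 213 normalized counts (SD, n = 3 each), a log2 fold change of -0.73 ± 0.15 (SE; adjusted p = 5.33e-06), or -0.34 when the libraries were scaled by TMM (trimmed mean of M values) over the human genes. The log2 fold change of DYRK1A came under the fold threshold when shDYRK1A 1B (-0.61), shControl 1B (-0.69) or shControl 1A (-0.70) was left out. Among all tested genes the median log2 fold change was -0.40 with spike-in scaling and 0.0019 with TMM scaling, a shift that applies to every spike-in value below. Of the 9 astroglial and glioblastoma markers, VIM, SOX9 and CD44 passed the filter, NES had 52 to 85 raw counts per library, and GFAP (0 to 4), SOX2 (0 to 2) and S100B (0 in every library) were at or near 0. The 9 markers summed to 135849 to 170048 normalized counts in shControl and 100556 to 116068 in shDYRK1A, with VIM (-0.72, adjusted p = 1.47e-07) and SOX9 (-0.75, adjusted p = 4.11e-06) lower. No leukocyte or endothelial marker of the 4 listed for each passed the filter, and their raw counts reached at most 9 and 22 in a library. KRT8 and KRT18 of the 4 epithelial markers and MAP2 of the 4 neuronal markers did pass. The neuronal markers summed to 1841 to 2297 normalized counts in shControl and 600.4 to 822 in shDYRK1A, with MAP2 lower (log2 fold change -1.64, adjusted p = 5.38e-23) and the defining marker RBFOX3 at 0 or 1 raw count, and the part of these markers in the integrin values was not tested.

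ITGB1 (ENSG00000150093, chr10:32900319-33005792, minus strand, GRCh38) was the most abundant of the integrin subunits per length in shControl and was far lower in shDYRK1A. Its normalized count was 23218, 22735 and 19456 in the shControl libraries and 6400.0, 5233 and 6398 in the shDYRK1A libraries. Each shDYRK1A library lay far below each shControl library, and the spread within a condition was small beside the gap. The mean went from 21803 ± 2047 (SD, n = 3) to 6010.1 ± 673 (SD, n = 3), which is 27.6% of the shControl level and a log2 fold change of -1.86 ± 0.14 (SE). Only 1 of the 9697 tested genes had a lower log2 fold change, which is how the gene came to be chosen. In raw counts, before any scaling, the 3 shControl libraries held 19072, 20035 and 19983 ITGB1 reads and the 3 shDYRK1A libraries 6771, 5648 and 7767. With TMM scaling the log2 fold change was -1.46 ± 0.049 (SE), and leaving out any 1 library gave spike-in values from -1.93 (without shControl 1C) to -1.77 (without shDYRK1A 1B).

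**Figure D1:**
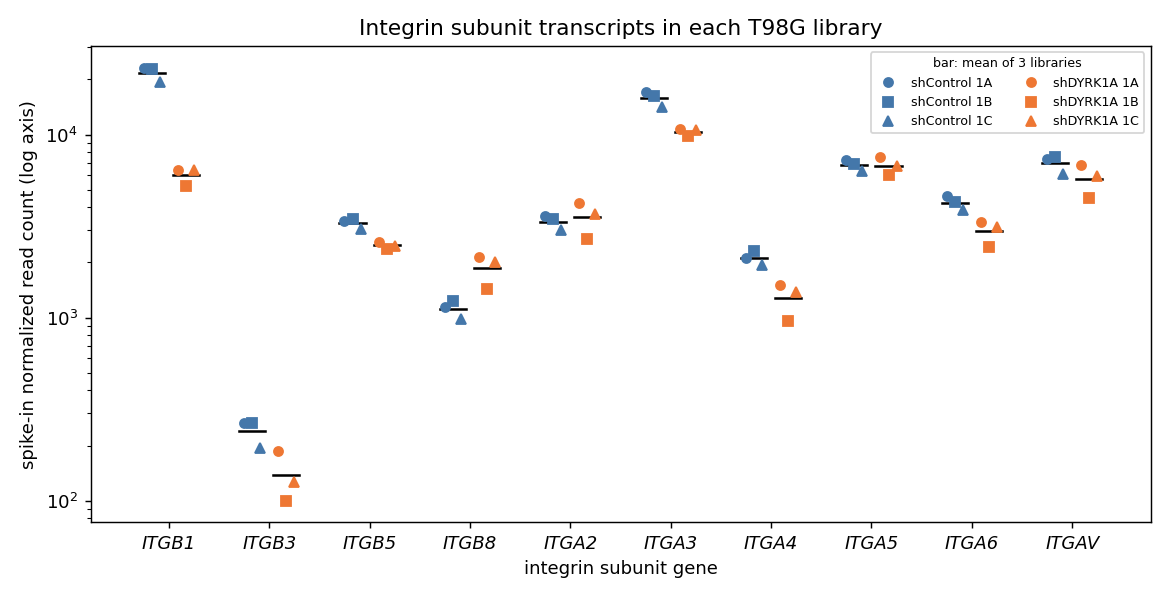
Spike-in normalized read counts (vertical log axis) of the 10 integrin subunit genes (horizontal axis) in the 3 shControl libraries (blue) and the 3 shDYRK1A libraries (orange), with a marker shape per library letter and a bar at the mean of each condition. ITGB1 shows the widest gap, ITGB8 is the only member with every shDYRK1A library above every shControl library, and ITGA2, ITGA5 and ITGAV overlap.

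Near the RefSeq start of ITGB1, a non-coding gene on the opposite strand, ITGB1-DT, begins at position 32958845 of chromosome 10, and the annotated exons of both genes share 42 bases. ITGB1-DT had only 32, 32 and 31 raw counts in shControl and 42, 26 and 36 in shDYRK1A, and the normalized counts of the conditions overlapped there (39.0, 36.3 and 30.2 against 39.7, 24.1 and 29.7). The window around the start is shown because the members with the largest differences in opposite directions, ITGB1 and ITGB8, can be compared there letter by letter. Each window runs from 250 bases before the RefSeq start to 50 after it (GRCh38.p14), 5′ to 3′ on the gene's strand, with matches to the GC box GGGCGGG or its reverse complement in capitals. The ITGB1 window is chr10:32958181-32958480 on the minus strand and the ITGB8 window is chr7:20330650-20330949 on the plus strand.
ITGB1: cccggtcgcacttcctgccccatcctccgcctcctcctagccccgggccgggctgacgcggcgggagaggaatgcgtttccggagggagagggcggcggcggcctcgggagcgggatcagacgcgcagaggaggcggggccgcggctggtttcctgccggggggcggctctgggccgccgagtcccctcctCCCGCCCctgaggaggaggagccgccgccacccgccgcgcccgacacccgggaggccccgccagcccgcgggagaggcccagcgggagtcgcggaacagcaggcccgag
ITGB8: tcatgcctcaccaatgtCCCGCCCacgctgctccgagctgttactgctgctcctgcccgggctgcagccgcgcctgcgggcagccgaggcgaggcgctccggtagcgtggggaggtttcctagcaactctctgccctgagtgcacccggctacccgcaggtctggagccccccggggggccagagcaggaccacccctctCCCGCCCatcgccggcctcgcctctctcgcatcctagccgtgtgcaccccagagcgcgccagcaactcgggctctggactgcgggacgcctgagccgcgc
Both windows are rich in G and C, at 78.3% for ITGB1 and 71.7% for ITGB8, against a median of 58.7% over 35116 RefSeq windows. The ITGB1 window holds 39 CG dinucleotides and 1 GC box match, and the ITGB8 window 28 and 2. RefSeq windows were found for 8 of the 10 members, 13 windows in all, and not for ITGB3 or ITGA3. A GC box lies in at least 1 window of ITGB1, ITGB5, ITGB8, ITGA2, ITGA5 and ITGA6, and in no window of ITGA4 or ITGAV. Of all windows taken singly, 33.1% hold one. Some members have more than 1 window, so the number of genes cannot be set against that share. The core of the palindrome that DYRK1A is known to recognize on chromatin, CTCGCGAG, occurs on either strand in 1.02% of all windows and in no window of a member, which says only that these letters are not in these windows. The letters TATAAA on either strand, found in 11.5% of all windows, occur in the second ITGB1 window, at an internal start at chr10:32935509-32935808, and in the upstream ITGA6 window at chr2:172427086-172427385.

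Of the other β subunits, ITGB8 was higher in shDYRK1A and ITGB5 and ITGB3 were lower. ITGB8 (ENSG00000105855, chr7:20330702-20415754, plus strand), the partner of αV in activating latent TGF-β, had normalized counts of 1139, 1238 and 985 in the shControl libraries and of 2151, 1424 and 2017 in the shDYRK1A libraries. All 3 shDYRK1A libraries lay above all 3 shControl libraries, with 1B the lowest of them. The mean went from 1121 ± 127 to 1864 ± 387 (SD, n = 3 each), a log2 fold change of 0.73 ± 0.15 (SE), and 1.13 with TMM scaling. Just 22 of the tested genes had a higher log2 fold change. The value was close to the 0.7 threshold and fell under it without shControl 1C (0.65), shDYRK1A 1A (0.62) or shDYRK1A 1C (0.67). An antisense gene at the ITGB8 start, AC004130.1, had 84, 89 and 88 raw counts in shControl and 103, 95 and 98 in shDYRK1A, with overlapping normalized counts.

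ITGB5 (ENSG00000082781, chr3:124761948-124901418, minus strand), whose product forms the vitronectin receptor αVβ5, had normalized counts of 3362, 3441 and 3044 in shControl and 2600.3, 2381 and 2454 in shDYRK1A. The groups did not overlap, and the libraries of a condition lay close together. Its log2 fold change of -0.41 ± 0.14 (SE) nearly equalled the median of all genes, and with TMM scaling it was -0.0010. ITGB3 (ENSG00000259207, chr17:47253846-47311816, plus strand), the β subunit of the other vitronectin receptor αVβ3, was scarce, with raw counts of 218, 233 and 199 in shControl and 197, 108 and 154 in shDYRK1A. Its normalized counts were 265, 264 and 194 against 186, 100.1 and 127, lower in each shDYRK1A library but with a wide spread. At a mean of 4.82 normalized CPM it entered only under the looser filters tried, and edgeR's filterByExpr gave a log2 fold change of -0.81 ± 0.20 (SE). The count of ITGB3 is in doubt, because AC068234.1 overlaps 51.6% of its exonic bases on the same strand. AC068234.1 is an annotated gene with 0 counts in every library, and reads that match both genes may have been left out as ambiguous.

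Among the α subunits that bind laminins with β1, ITGA3 and ITGA6 were both lower in shDYRK1A. ITGA3 (ENSG00000005884, chr17:50055968-50090481, plus strand) was the most abundant α subunit per length, with normalized counts of 17012, 16177 and 14186 in the shControl libraries and of 10728, 9817 and 10606 in the shDYRK1A libraries. The groups did not overlap, and the mean went from 15792 ± 1452 to 10384 ± 495 (SD, n = 3 each), a log2 fold change of -0.60 ± 0.13 (SE). ITGA6 (ENSG00000091409, chr2:172427354-172506282, plus strand) had normalized counts of 4607, 4262 and 3855 in shControl and 3333, 2433 and 3109 in shDYRK1A. Here too every shDYRK1A library was below every shControl library, with shDYRK1A 1B the lowest. The log2 fold change of ITGA6 was -0.52 ± 0.14 (SE). With TMM scaling these values were -0.20 for ITGA3 and -0.12 for ITGA6.

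The α subunits that bind fibronectin gave unlike values. ITGA5 (ENSG00000161638, chr12:54395261-54419460, minus strand), which joins β1 in the classical fibronectin receptor, had normalized counts of 7241, 6905 and 6300.2 in the shControl libraries and of 7584, 6000.0 and 6734 in the shDYRK1A libraries. The groups overlapped over most of their range. Its log2 fold change was -0.0090 ± 0.13 (SE), ranging from -0.10 to 0.071 as single libraries were left out, and 0.39 with TMM scaling. ITGA4 (ENSG00000115232, chr2:181457202-181536187, plus strand), whose product binds VCAM1 as well as fibronectin, had normalized counts of 2113, 2315 and 1945 in shControl and 1511, 959 and 1374 in shDYRK1A. All shDYRK1A libraries were lower, and shDYRK1A 1B was lower than the other two. The log2 fold change of ITGA4 was -0.73 ± 0.15 (SE), just past the threshold of -0.7, and it became -0.66 without shControl 1B, -0.56 without shDYRK1A 1B and -0.34 with TMM scaling.

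ITGA2 and ITGAV overlapped between the conditions. ITGA2 (ENSG00000164171, chr5:52989326-53094779, plus strand), the collagen-binding partner of β1, had normalized counts of 3568, 3442 and 2999 in the shControl libraries and of 4203, 2689.6 and 3694 in the shDYRK1A libraries. The shDYRK1A libraries spanned the shControl range, with 1B below it and 1A and 1C above it. The log2 fold change was 0.081 ± 0.14 (SE), turned to -0.063 without shDYRK1A 1A, and was 0.47 with TMM scaling. ITGAV (ENSG00000138448, chr2:186590065-186680901, plus strand), which pairs with β1 and with all the other β subunits listed here, had normalized counts of 7345, 7495 and 6083 in shControl and 6784, 4511 and 5935 in shDYRK1A. The shDYRK1A 1A library lay within the shControl range, and 1B and 1C lay below it. The log2 fold change of ITGAV was -0.28 ± 0.13 (SE), against 0.12 with TMM scaling. The library shDYRK1A 1B had the lowest normalized count of the shDYRK1A libraries for all 10 members. It was also the lowest over all genes together. Divided by its spike-in constant, its total was 31230657 counts, against 36658657 in 1A and 33310112 in 1C. A total does not say how many genes share this order. That share over all genes was not counted, so the order cannot be called particular to the members.

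Counted together, the members lay on both sides of the median shift of all tested genes. By the rule given above, 2 of the 9 tested members (ITGB1 and ITGA4) were called lower, where 14.3% of all tested genes were, and 1 (ITGB8) was called higher, where 0.278% were. In 5 tested members (ITGB1, ITGB5, ITGA3, ITGA4 and ITGA6) all shDYRK1A libraries lay below all shControl libraries, a pattern shown by 63.6% of the tested genes. The reverse held for ITGB8 and for 1.59% of the tested genes. With TMM scaling, ITGB1 was the 1 member called lower and ITGB8 the 1 called higher, where 1.93% and 1.25% of the tested genes were. The median log2 fold change of the tested members was -0.41, beside -0.40 for all tested genes. Since these values chose the members, nothing is read from the counts.

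**Figure D2:**
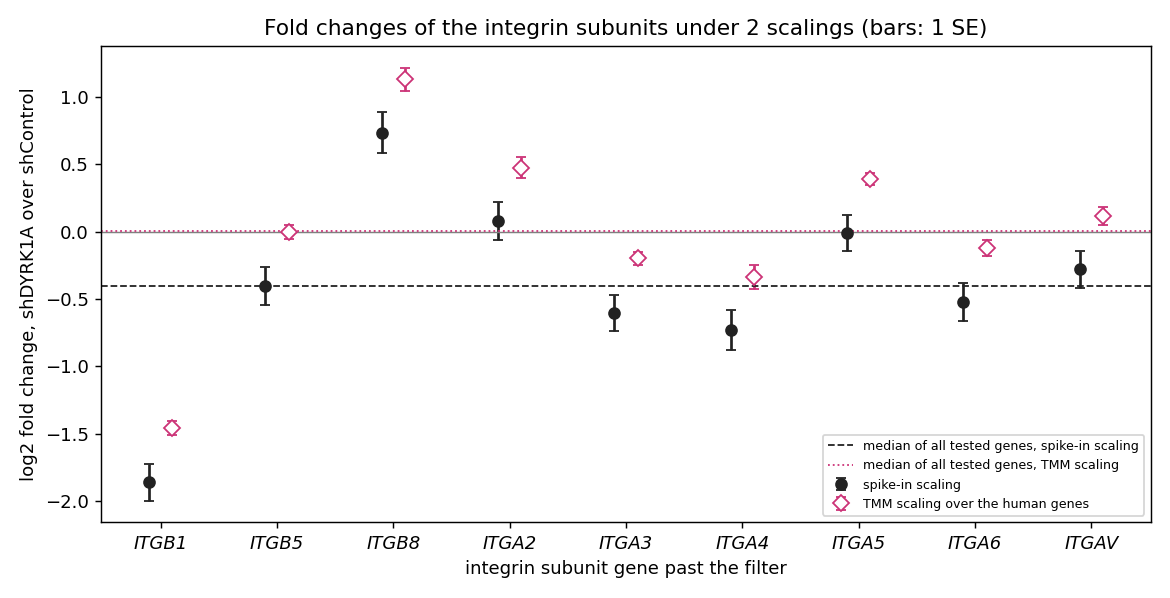
Log2 fold change of shDYRK1A over shControl (vertical axis, bars of 1 SE) for the 9 integrin subunits that passed the filter, with spike-in scaling (filled circles) and TMM scaling (open diamonds), beside the median of all 9697 tested genes under each (dashed and dotted lines). ITGB1 lies lowest at -1.86 and -1.46 and ITGB8 highest at 0.73 and 1.13, while ITGB5 sits on the median line under both scalings.

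Levels were compared between genes only per kilobase of the main annotated transcript. In shControl the order of normalized counts per kilobase ran from ITGB1 (5762 ± 541, SD, n = 3) through ITGA3 (3231 ± 297), ITGA5 (1534 ± 107), ITGAV (992 ± 110.3), ITGA6 (755 ± 67.0), ITGB5 (751 ± 48.0), ITGA4 (507 ± 44.2), ITGA2 (424 ± 38.0) and ITGB8 (128 ± 14.6) to ITGB3 (60.4 ± 10.3). The only neighbours in that order whose libraries overlapped were ITGA6 and ITGB5. In shDYRK1A, ITGA3 came first at 2124 ± 101, and ITGB1 at 1588 ± 178 could no longer be separated from ITGA5 at 1524 ± 178. Below ITGAV (817 ± 163), the neighbours ITGB5 (567 ± 25.5), ITGA6 (527 ± 83.4), ITGA2 (448 ± 97.9), ITGA4 (306 ± 68.7) and ITGB8 (213 ± 44.2) each overlapped with the next, and ITGB3 stayed last at 34.5 ± 11. With the union of all exons as the length, ITGA2 (422) came before ITGA4 (269) in shControl, and the order of ITGA6 (453), ITGA2 (446) and ITGB5 (384) in shDYRK1A changed. The place of ITGB3 in either order carries the doubt over the exons it shares with AC068234.1.

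Shares within a subunit family do not depend on how the libraries are scaled. ITGB1 took 86.4, 85.8 and 85.7% of the β subunit reads per kilobase in the shControl libraries and 65.6, 65.4 and 67.2% in the shDYRK1A libraries. The share was lower in every shDYRK1A library, going from a mean of 86.0% ± 0.378 to 66.1% ± 1.02 (SD, n = 3 each), a difference of -19.9 percentage points. ITGB5 went from 11.2% ± 0.389 to 23.7% ± 1.80, and ITGB8 went from 1.91% ± 0.0977 to 8.80% ± 0.975. Without division by length, ITGB5 differed by 11.3 percentage points and ITGB8 by 13.4, so that the larger gain passed from ITGB5 to ITGB8. The ITGB5 share was higher while its own normalized count was lower, and the ITGB8 share with a higher one. ITGB3 remained at or below 1.81% of the β subunit reads per kilobase in every library.

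The make-up of the α subunits differed less. ITGA3 went from 43.4% ± 0.419 to 37.2% ± 2.81 of the α subunit reads per kilobase, and ITGA5 from 20.6% ± 0.442 to 26.5% ± 0.667 (SD, n = 3 each). ITGA2 went from 5.70% ± 0.0214 to 7.74% ± 0.816, ITGA4 from 6.82% ± 0.426 to 5.28% ± 0.610 and ITGA6 from 10.1% ± 0.236 to 9.13% ± 0.417. The shares of these 5 genes did not overlap between the conditions, while those of ITGAV, at 13.3% ± 0.516 and 14.1% ± 1.2, did.

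Summed over each family, the normalized counts per kilobase of the α subunits were 7442 ± 641 in shControl and 5746 ± 685 in shDYRK1A, and those of the β subunits 6701 ± 610.1 and 2403 ± 251 (SD, n = 3 each). The ratio of α to β subunit reads per kilobase, which is free of the scaling, was 1.11 ± 0.0127 in shControl and 2.39 ± 0.0661 in shDYRK1A. Taking only the α subunits other than ITGAV over ITGB1, which is their one β partner in this list, the ratio was 1.12 ± 0.0189 against 3.11 ± 0.112. The β subunits without ITGB1 summed to 939 ± 72.3 and 814 ± 77.8, so the β total differed mostly through ITGB1. These are transcript amounts, and no protein or surface receptor was measured in these libraries.

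**Figure D3:**
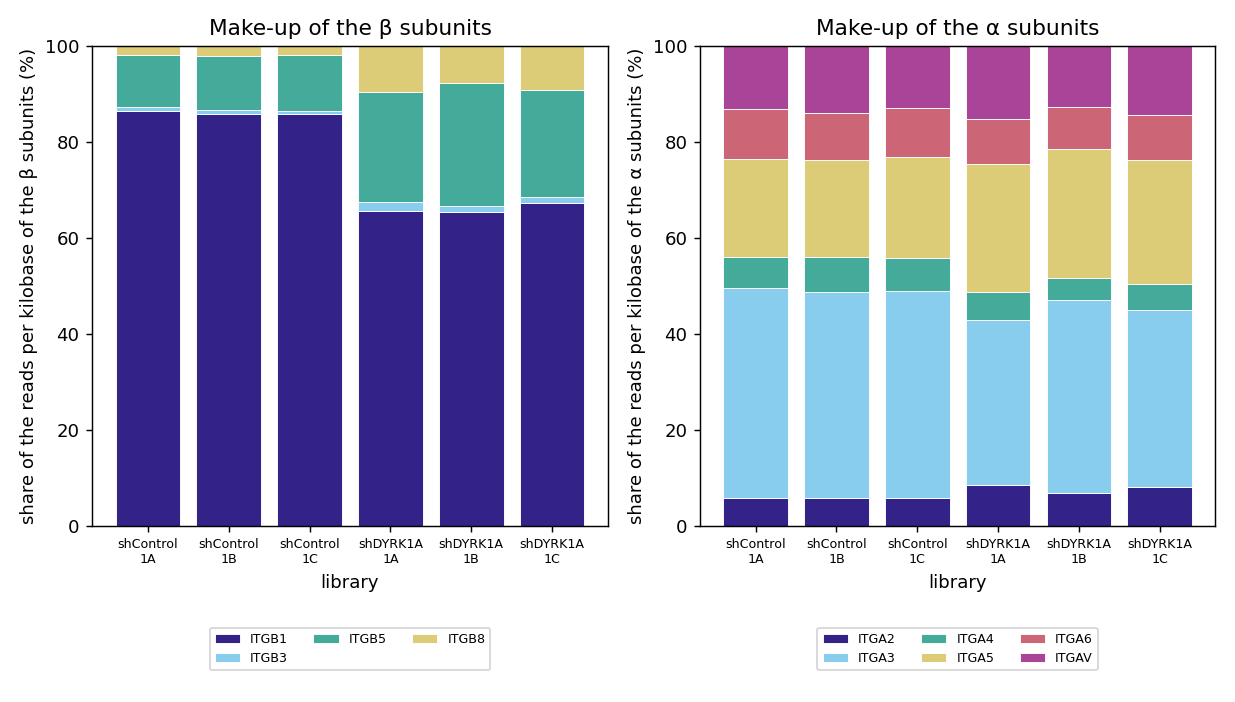
Share of each gene (vertical axis, %) in the reads per kilobase of the 4 β subunits (left) and of the 6 α subunits (right), 1 stacked bar per library (horizontal axis). ITGB1 fills 85.7 to 86.4% of the β bar in shControl and 65.4 to 67.2% in shDYRK1A, and the α bars differ less.

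The genes that work with integrins were followed in 6 lists of 154 genes, none of them members, of which 120 passed the filter. Of these 22 (18.3%) were called lower, against the 14.3% of all tested genes, and 0 higher, in edgeR and in DESeq2 alike. At an unadjusted p below 0.05, 79 were lower and 3 higher in edgeR, with no share over all tested genes taken at that threshold. At an adjusted p below 0.05 with no threshold on the fold change, 72 were lower and 3 higher, where 63.4% and 1.08% of all tested genes were. With TMM scaling 7 were called lower (5.83%) and 3 higher (2.5%), against 1.93% and 1.25% of all tested genes. The counts of single lists below stand beside the same shares of all tested genes. These are 14.3% lower and 0.278% higher with spike-in scaling, and 1.93% and 1.25% with TMM scaling. The lists were drawn up with earlier results of these data known, and no test of a list as a whole was run.

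Of 16 other integrin subunits, 5 passed the filter, with a median log2 fold change of -0.20, and 1 was called. ITGAX, the αX subunit known from myeloid cells, fell from 1511 ± 155 to 672 ± 62.6 normalized counts (SD, n = 3 each; log2 fold change -1.17, adjusted p = 2.65e-12). Its usual partner ITGB2 was below the filter at 42 to 76 raw counts per library. ITGA8, which pairs with β1, had the highest value of the list at 0.11 (adjusted p = 0.472), and 0.51 with TMM scaling. ITGA10, a collagen-binding partner of β1 singled out after its values were seen, was below the filter, with raw counts of 87, 93 and 102 in the shControl libraries and 277, 209 and 297 in the shDYRK1A libraries. The groups did not overlap, and with edgeR's own low-count filter its log2 fold change was 1.17 (adjusted p = 2.57e-07). Under that filter 3 genes of this list were called lower and 1 higher, and over all genes 2492 and 229 were. The shares of all tested genes given above do not hold for that filter, and its own shares were not taken. Besides ITGAX, the listed genes called lower were ITGA2B (-1.30, adjusted p = 0.0086) and ITGA7 (-0.80, adjusted p = 0.0314). Both were scarce, at 6 to 25 and 27 to 52 raw counts per library.

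Among the proteins that bind integrin tails and switch the receptors on or off, 5 of 19 tested genes were called lower and 0 higher, with a median of -0.52. FERMT2, which encodes the activator kindlin-2, fell most (log2 fold change -1.42 ± 0.16, SE; adjusted p = 3.35e-17; -1.02 with TMM scaling), from 1355, 1443 and 1186 normalized counts in the shControl libraries to 544, 446 and 500.0 in the shDYRK1A libraries. The actin cross-linkers filamin C (FLNC, -1.25, adjusted p = 6.96e-17) and filamin A (FLNA, -0.84, adjusted p = 5.35e-10) fell too, as did the talin gene TLN2 (-0.87, adjusted p = 1.16e-06) and the tensin gene TNS2, which completes the count. With TMM scaling 2 genes, FERMT2 and FLNC (-0.85), were called lower, and TLN2 (-0.47) and FLNA (-0.44) were under the fold threshold. TLN1, the main talin of most cells, had a log2 fold change of -0.26 (adjusted p = 0.0667) and one of 0.14 with TMM scaling. The highest value of the list was that of RASSF5, a Rap1 effector, at -0.028 (adjusted p = 0.887), or 0.38 with TMM scaling.

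Among adhesion scaffold proteins and kinases, 4 of 33 tested genes were called lower and 0 higher, with a median of -0.45. LIMS1, which encodes the PINCH-1 adaptor of integrin-linked kinase, fell by 1.23 on the log2 scale (adjusted p = 2.56e-15), and KANK2, a talin-binding protein at the rim of adhesions, fell by 0.98 (adjusted p = 1.55e-10). The Src family kinase YES1 (-0.82, adjusted p = 1.28e-07) and CSK, the kinase that restrains Src kinases (-0.71, adjusted p = 3.63e-06), were the others called. With TMM scaling 1 gene was called lower, LIMS1 (-0.83), while KANK2 (-0.58), YES1 (-0.42) and CSK (-0.31) were under the fold threshold. The count was 7 without shDYRK1A 1A, where the number called lower over all genes also rose, from 1386 to 2098. CSK lost its call without shControl 1A (-0.67), shControl 1B (-0.68), shDYRK1A 1B (-0.68) or shDYRK1A 1C (-0.69). PTK2, which encodes focal adhesion kinase (-0.53, adjusted p = 0.000341), and the adaptor paxillin (PXN, -0.60, adjusted p = 5.45e-05) passed the adjusted p without reaching the fold threshold. ILK (-0.24, adjusted p = 0.110) and vinculin (VCL, -0.18, adjusted p = 0.222) did not pass, and their sign turned with TMM scaling (0.17 and 0.22). ELMO2, part of the DOCK1 complex, was the highest at -0.17 (adjusted p = 0.272), or 0.24 with TMM scaling.

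Of the extracellular ligands, 7 of 28 tested genes were called lower and 0 higher, with a median of -0.42. FN1, the fibronectin gene, fell from 40247 ± 3606 to 22829.6 ± 3199.9 normalized counts (SD, n = 3 each; log2 fold change -0.82, adjusted p = 4.11e-09). The neural adhesion molecule L1CAM fell most (-1.51, adjusted p = 1.70e-22), followed by the collagen VI chain COL6A3 (-1.19, adjusted p = 9.99e-20). The matricellular genes CCN2 (-0.96, adjusted p = 5.06e-08) and CCN1 (-0.90, adjusted p = 6.41e-09) fell as well, and the laminin chains LAMB1 and LAMB3 complete the count. With TMM scaling 2 ligands were called lower, L1CAM (-1.11) and COL6A3 (-0.79), and 2 higher, while CCN2 (-0.56), CCN1 (-0.48) and FN1 (-0.42) were under the fold threshold. COL3A1, a fibrillar collagen, ran the other way, with 1501, 1729 and 1535 normalized counts in the shControl libraries and 2594, 2284 and 2439.7 in the shDYRK1A libraries. Its groups did not overlap, and its log2 fold change of 0.62 (adjusted p = 8.78e-05) was under the fold threshold with spike-in scaling and 1.02 with TMM scaling.

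Among the membrane proteins that sit beside integrins, 4 of 17 tested genes were called lower and 0 higher, with a median of -0.36. CAV1, which encodes the caveolar coat protein caveolin-1, came close to ITGB1, with 20782, 19622 and 16166 normalized counts in the shControl libraries and 6144, 5420.0 and 5930.5 in the shDYRK1A libraries. The groups lay far apart, with a log2 fold change of -1.69 ± 0.14 (SE; adjusted p = 1.61e-32). The matrix co-receptor syndecan-1 (SDC1, -0.98, adjusted p = 1.45e-10), the tetraspanin CD9 (-0.89, adjusted p = 1.80e-08) and SLC3A2, the CD98 heavy chain that binds β1 (-0.86, adjusted p = 1.22e-09), also fell. With TMM scaling 1 of the partners was called lower, CAV1 (-1.28), and SDC1 (-0.57), CD9 (-0.48) and SLC3A2 (-0.45) were under the fold threshold. SDC4, another syndecan, had the highest value at 0.053 (adjusted p = 0.741). In integrin trafficking, 1 of 18 tested genes was called lower and 0 higher, with a median of -0.30. The called gene was RAB21, a GTPase that binds integrin α tails during endocytosis (-0.79, adjusted p = 2.54e-06), and the highest was the recycling GTPase RAB11B (0.34, adjusted p = 0.0262). With TMM scaling the trafficking count turned to 0 lower and 1 higher, as RAB21 (-0.39) lost its call and RAB11B (0.75) gained one.

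**Figure D4:**
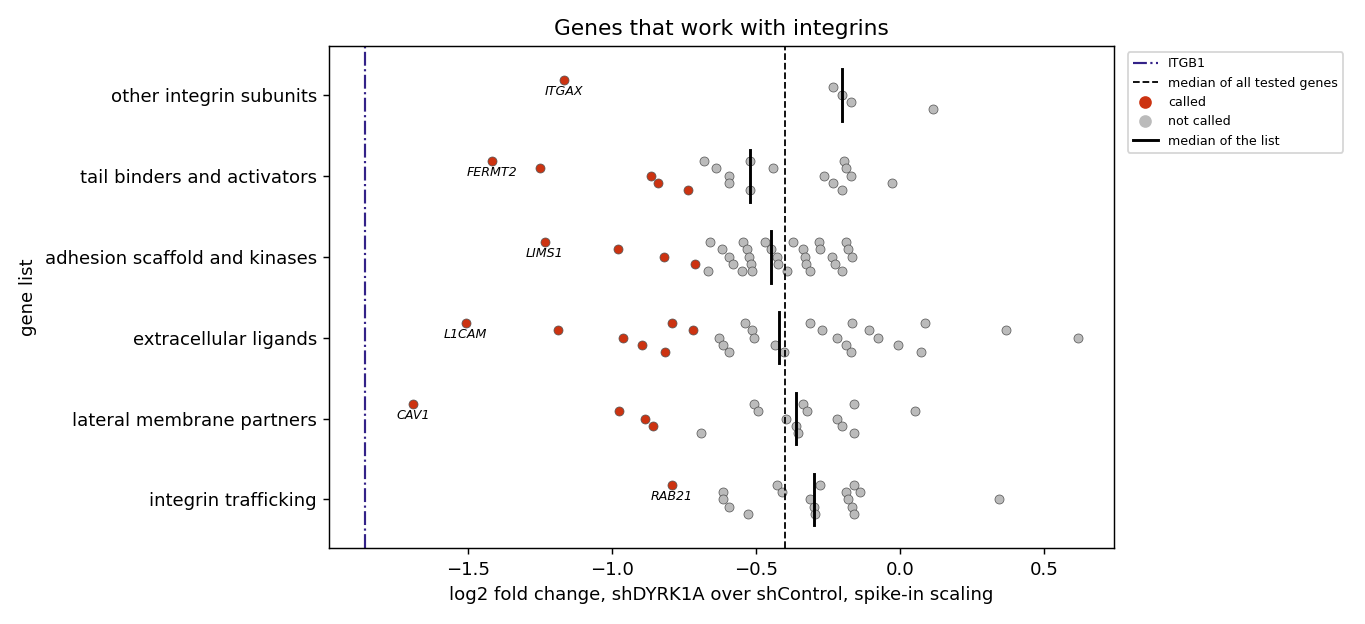
Log2 fold change of shDYRK1A over shControl with spike-in scaling (horizontal axis) for the tested genes of the 6 lists (rows), 1 point per gene, called genes in red and the others in grey, with a black bar at the median of each list, the lowest gene of each list named, and lines at ITGB1 (-1.86) and at the median of all tested genes (-0.40). No listed gene lies to the left of ITGB1, CAV1 comes nearest, and the list medians run from -0.52 to -0.20.

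The tested genes whose pattern over the 6 libraries was most like that of ITGB1 were found by the root mean square difference of log2 normalized counts, each gene being centred on its shControl mean. They were SOAT1, TSN, AMIGO2, TMEM245 and COL5A2, at distances of 0.0544, 0.0578, 0.0598, 0.0629 and 0.0769. SOAT1, which encodes an enzyme that esterifies cholesterol, had 4476, 4182 and 3591 normalized counts in shControl and 1302, 986 and 1204 in shDYRK1A. COL5A2, a collagen V chain, had 11263, 11437 and 9855 normalized counts in shControl against 3608, 2666 and 3227 in shDYRK1A. The log2 fold changes of the 5 genes lay between -1.82 (TMEM245) and -1.78 (COL5A2), a similarity that the measure itself selects. Among the members the nearest to ITGB1 was ITGA4, at a distance of 0.793, and the farthest ITGB8, at 1.83.

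The 3′ UTRs of the members were read for the letters TGAAGT, a word taken from an earlier scan of these same data, so its presence here is a description and no independent support. In the main GENCODE v29 transcript of each gene (sense strand, GRCh38), ITGB1 holds 3 matches in 1251 bases and ITGB8 holds 3 in 5757 bases. ITGB5, ITGA2 and ITGAV hold 1 each, and ITGB3, ITGA3, ITGA4, ITGA5 and ITGA6 hold 0. The matches of the members with the lowest and the highest fold change are shown, 5′ to 3′ on the transcript, with the word in capitals.
ITGB1 (chr10:32900643-32900662): ttttcttTGAAGTtttagcg
ITGB1 (chr10:32900604-32900623): gaacatgTGAAGTtatactg
ITGB1 (chr10:32900420-32900439): tatttacTGAAGTtatttat
ITGB8 (chr7:20411195-20411214): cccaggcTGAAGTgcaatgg
ITGB8 (chr7:20411764-20411783): aagagacTGAAGTatggcat
ITGB8 (chr7:20413620-20413639): ggtataaTGAAGTtcttcat
Among 9207 tested genes with a 3′ UTR of at least 50 bases, 38.8% hold the word at least once and 8.22% at least 3 times, with a median UTR length of 1207 bases. ITGB1 and ITGB8 hold the same number of matches in UTRs of unlike length. Of the 5 genes nearest to ITGB1, SOAT1 holds 6 matches in 5039 bases and TMEM245 6 in 5308. TSN holds 3 in 2486 bases, COL5A2 2 in 2174 and AMIGO2 0 in 1727. Whether the word goes with the fold change was not tested.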

How the data were processed

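T98G RNA from 3 shControl and 3 shDYRK1A libraries was sequenced as stranded paired-end mRNA, and the sample titles gave the groups and library letters. The authors deposited raw read counts per gene for each library, with 58174 human gene identifiers, and their processing notes name STAR, DESeq2, hg38 and dm3, with no role or version given there. Summary lines for unassigned reads (18.9 to 25.0% of the reads) entered neither the library sizes nor the tests. The authors also deposited a normalized signal for 23026 genes, the counts divided by 1 constant per library that the study's methods derive from the Drosophila reads, and these constants served here as size factors. A further deposited table of the authors' own comparison, with fold changes and p-values, was not used. Of the per-sample columns, 0 lacked a matching sample.

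Genes with a mean normalized CPM (counts scaled to the mean library size) above 10 were tested in edgeR 4.0.16 (glmQLFit and glmQLFTest, robust, R 4.3.3, limma 3.58.1), with Benjamini-Hochberg adjustment over all 9697 genes, and a call needed both an adjusted p below 0.05 and a change beyond 0.7 on the log2 scale. The SE was obtained from the log2 fold change and its F statistic. The fit was tested on simulated data before use. Transcript lengths, 3′ UTRs and overlaps came from GENCODE v29, promoter windows from RefSeq (GRCh38.p14). Members, lists and the searched words were chosen with earlier results of these data known. Named genes were the members, DYRK1A, and up to 4 called genes and the highest tested gene per list. Fixed hub genes (TLN1, FERMT2, ILK, PTK2, PXN, VCL and FN1) and the 5 genes nearest to ITGB1 were named too. Others named to complete a count, and ITGA10, ITGA2B and ITGA7, were chosen after their values were seen. As alternatives, the fits were repeated without a fold threshold, with DESeq2 1.42.0, with 2 other filters (filterByExpr, or 1 count in all), with TMM or median-of-ratios size factors, with a replicate block and without each library, and shares were taken over other lengths.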

Additional observations from a re-analysis of the deposited data

How the results depend on the processing

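The scale, the low-count filter and the fold threshold all moved the counts over all genes. The numbers of genes called lower and higher, 1386 and 27 with the spike-in constants, were 187 and 121 with TMM scaling, 184 and 125 with median-of-ratios scaling, 2492 and 229 with filterByExpr, 2468 and 224 with no filter beyond 1 count, and 6145 and 105 at an adjusted p below 0.05 alone. Leaving out 1 library gave 920 to 2098 lower and 17 to 33 higher, the lower count being 920 without shDYRK1A 1B, 2098 without shDYRK1A 1A and 2084 without shControl 1C, and the higher count 17 without shControl 1C. Integrin subunits called lower numbered 2, and 1 under TMM or median-of-ratios scaling, 3 under filterByExpr and with no filter, where ITGB3 entered, 5 at an adjusted p alone and 1 to 2 with a library left out, while those called higher numbered 1, or 0 to 1 with a library left out. Listed genes called lower numbered 22, or 7 under TMM and under median-of-ratios scaling and 72 at an adjusted p alone, and those called higher 0, or 3 under TMM scaling, median-of-ratios scaling, filterByExpr or an adjusted p alone and 2 with no filter. The ITGB1 log2 fold change of -1.86 was -1.46 under TMM and -1.45 under median-of-ratios scaling. The difference in its share of β subunit reads, -19.9 percentage points, was -25.1 without division by length and -20.1 with the union of all exons as the length, an alternative added after the data were seen. DESeq2's Wald test gave the same counts of calls as edgeR. The counts of integrin subunits called are descriptions only, since these values chose the members.

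Signs turned under TMM and median-of-ratios scaling for RASSF5 (0.38 under both), ELMO2 (0.24 under both), TLN1 (0.14 under both), ILK (0.17 under both) and VCL (0.22 under both), and among the members for ITGA5 (0.39 under both) and ITGAV (0.12 under both), while ITGB5 turned only under median-of-ratios scaling (0.0020, against -0.0010 under TMM). With 1 library left out, ITGA2 ran from -0.063 to 0.24, ITGA5 from -0.10 to 0.071, RASSF5 ran from -0.13 to 0.056 (without shControl 1A it was under the filter) and SDC4 from -0.030 to 0.12. Under TMM scaling the median log2 fold change of all tested genes also moved, from -0.40 to 0.0019. The turns under that scaling thus came with a shift shared by all tested genes. The cause of the turns with 1 library left out was not tested.

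With the replicate letter as a block, 1394 genes were called lower and 28 higher and ITGB1 stood at -1.86, and no count of members or listed genes moved. The letters were taken only as names, since deviations from the group means correlated between same-lettered libraries at 0.151 for 1A, 0.0729 for 1B and 0.128 for 1C, and the labels give no shared origin. With 3 libraries a group, a log2 fold change carried a median SE of 0.15, so that members near the thresholds, ITGB8 and ITGA4, depended on single libraries.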
